A study of Mus musculus with 8 samples.

Results

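The genes described here write or remove the best known repressive marks of chromatin: Ezh1, Ezh2, Eed and Suz12, which encode the core of Polycomb repressive complex 2 (PRC2), the DNA methyltransferase genes Dnmt1, Dnmt3a and Dnmt3b, and Tet1, Tet2 and Tet3, whose products oxidize methylated cytosine. They were taken by symbol from the table of read counts, where 10 of its 26667 rows carry these names. Their level was followed in undifferentiated pleomorphic sarcoma (UPS), a soft tissue sarcoma, in 8 mice: 4 of the KP genotype, numbered KP 5 to KP 8, and 4 of the KPH2 genotype, numbered KPH2 1 to KPH2 4. RNA came from fixed, paraffin-embedded tumour sections, with a single library for each. Both groups share the KP alleles, floxed Trp53 (Trp53 fl/fl) among them, and KPH2 mice carry floxed Epas1 (Epas1 fl/fl) besides. All tumours arose in adult mice of mixed 129 and C57BL/6 background after an adenovirus carrying Cre was injected into the hind limb muscle, so the recombined cells are whichever cells the virus reached, and the unrecombined cells of the host stay in each section. The question asked of the tumours was what differs when hypoxia-inducible factor 2α (HIF-2α, the product of Epas1) is lost. The study left out 1 knockout tumour as an outlier without a number, and KPH2 1, absent from its 7-tumour table of normalized values, was taken to be that tumour and is given apart, so the main comparison is of KPH2 2 to KPH2 4 with KP 5 to KP 8.

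PRC2 places methyl groups on lysine 27 of histone H3, a mark of silenced developmental genes. EZH2 is its main catalytic subunit in dividing cells, EZH1 a weaker relative that persists in cells at rest, and EED and SUZ12 hold the complex together. DNMT3A and DNMT3B set new methylation on cytosine next to guanine (CpG), DNMT1 copies it to the daughter strand after replication, and TET enzymes oxidize it, which opens the way to its removal. PRC2 subunits, DNMT3A and TET2 are among the chromatin regulators altered in human tumours, and DNMT1 and EZH2 are the targets of drugs that release silenced genes. TET enzymes need oxygen and 2-oxoglutarate, as do the enzymes that mark HIF-2α for destruction.

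Of the 10 genes, Dnmt3a differed most clearly between the groups. It was higher in each KPH2 tumour than in each KP tumour and 1.69-fold higher on average without KPH2 1, with an adjusted p that just missed 0.05 by edgeR. None of the 10 passed that threshold by edgeR in either set of tumours. The intervals of the Polycomb core, of Dnmt1 and Dnmt3b and of the TET genes all included no change.

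The sequences around the start sites are shown because Ezh2 and Dnmt1 are textbook targets of E2F factors, which drive S-phase genes, and because the deleted gene encodes a factor that binds hypoxia response elements. All 10 genes had an entry among the RefSeq promoters (GRCm38.p6, 250 bases before to 50 after each start), with 14 windows in all. The E2F words searched on both strands were TTTCCCGC, TTTGGCGC, TTTCGCGC and TTTGCCGC. They occurred in 3 of the 14 windows, 1 each of Ezh2, Suz12 and Dnmt1, and in 744 of all 32851 promoters (2.26%). Each of these words holds a CpG, and 13 of the 14 windows had more CpG than the median promoter. The shares were not matched for CpG, so their difference is not a measure of E2F sites. In the first 4 sequences the capitals mark these words, and Ezh1, the relative of Ezh2, held none. The windows are chr6:47594981-47595280 for Ezh2, chr11:79992856-79993155 for Suz12, the only 1 of the 4 on the plus strand, chr9:20952574-20952873 for Dnmt1 (the only 1 of its 3 windows with such a word) and chr11:101226414-101226713 for Ezh1, each written 5′ to 3′ along the gene.
Ezh2: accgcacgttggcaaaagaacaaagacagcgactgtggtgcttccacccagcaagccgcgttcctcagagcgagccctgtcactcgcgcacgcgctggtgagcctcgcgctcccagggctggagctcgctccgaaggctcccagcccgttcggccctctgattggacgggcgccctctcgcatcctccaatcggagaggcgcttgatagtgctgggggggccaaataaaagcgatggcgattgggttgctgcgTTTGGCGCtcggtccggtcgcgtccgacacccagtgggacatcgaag
Suz12: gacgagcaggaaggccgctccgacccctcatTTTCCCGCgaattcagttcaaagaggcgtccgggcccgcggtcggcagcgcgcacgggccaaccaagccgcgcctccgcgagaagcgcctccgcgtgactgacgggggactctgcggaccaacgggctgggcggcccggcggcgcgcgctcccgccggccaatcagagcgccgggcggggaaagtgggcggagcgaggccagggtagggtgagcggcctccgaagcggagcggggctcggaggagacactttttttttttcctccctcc
Dnmt1: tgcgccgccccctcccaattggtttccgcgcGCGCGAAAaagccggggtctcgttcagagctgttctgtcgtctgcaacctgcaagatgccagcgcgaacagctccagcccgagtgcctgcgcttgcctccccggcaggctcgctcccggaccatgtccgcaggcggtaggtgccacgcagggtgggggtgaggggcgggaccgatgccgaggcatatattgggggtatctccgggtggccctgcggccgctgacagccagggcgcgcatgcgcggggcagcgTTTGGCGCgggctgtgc
Ezh1: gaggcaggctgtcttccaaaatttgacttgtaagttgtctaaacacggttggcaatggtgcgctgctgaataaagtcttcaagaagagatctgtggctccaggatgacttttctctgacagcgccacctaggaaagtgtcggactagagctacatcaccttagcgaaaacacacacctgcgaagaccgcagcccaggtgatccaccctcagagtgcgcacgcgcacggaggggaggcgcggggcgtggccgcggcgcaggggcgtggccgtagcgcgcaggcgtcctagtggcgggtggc

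The core words of the hypoxia response element, ACGTG and GCGTG on either strand, occurred in 6 of the 14 windows and in 43.8% of all promoters, so these short words are common. The 6 windows were 1 each of Ezh1, Ezh2, Suz12, Dnmt1, Dnmt3a and Tet2. Dnmt3a had 3 windows, and only the one farthest downstream, chr12:3891494-3891793 on the plus strand, held ACGTG. It lay on both strands at 80 and 79 bases before the start, where the copies overlap and form CACGTG, which is also the E-box word of MYC-type factors. The capitals mark them.
Dnmt3a: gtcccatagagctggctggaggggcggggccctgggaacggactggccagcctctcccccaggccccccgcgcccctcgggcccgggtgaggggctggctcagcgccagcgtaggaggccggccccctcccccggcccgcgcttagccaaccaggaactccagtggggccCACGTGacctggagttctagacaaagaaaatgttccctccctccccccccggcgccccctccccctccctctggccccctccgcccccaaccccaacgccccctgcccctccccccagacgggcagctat
Both upstream windows of Dnmt3a held 46 and 47 CpG and no hypoxia word. Over the 14 windows of the 10 genes CpG counts ran from 2 to 57 with a median of 26.5, and 13 of them lay above the median of all promoters, 7 CpG per window. A match in these windows is a description of letters, and counts per gene do not tell which start was used.

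Total counts ran from 6463221 to 13155510 per tumour, and all 10 genes passed edgeR's filter on low counts, in a test of 14867 genes over 7 tumours and 14805 over all 8. Levels are counts per 1e+06 counts of the TMM-scaled library (CPM). Epas1, counted over the whole gene, was at 59.1, 83.0, 86.7 and 83.9 CPM in KP 5 to KP 8, at 53.3, 37.7 and 42.4 in KPH2 2 to KPH2 4 and at 32.6 in KPH2 1, with no overlap of the groups (log2 fold change −0.81, edgeR adjusted p = 0.0742 over 7 tumours). Of 9 mesenchymal markers, summed at 18040 to 42561 CPM in KP, 21740 to 30410 in KPH2 2 to KPH2 4 and 27612 in KPH2 1, 7 were lower in KPH2 2 to KPH2 4 and 1 passed by edgeR, Pdgfra. Vim was at 1344 to 2924 CPM over the 8 tumours, and Pdgfra fell from 995 ± 341 CPM (SD, n = 4) to 245 ± 25.5 CPM (SD, n = 3), with KPH2 1 at 638. The summed CPM of 30 skeletal muscle markers, none of them at 0 in all tumours, was 1835 to 3353 in KP, 4342 to 19599 in KPH2 2 to KPH2 4 and 1516 in KPH2 1. Of these markers 29 were tested, all 29 were higher in KPH2 2 to KPH2 4, 26 had an unadjusted p under 0.05 and 3 passed the adjusted p of edgeR. Over all genes tested these shares were 17.8% and 1.96%, to be read beside each marker list here. All 14 macrophage markers were lower, 7 had an unadjusted p under 0.05 by edgeR and none passed. Their summed CPM was 2420 to 4847 in KP, 1847 to 2688 in KPH2 2 to KPH2 4 and 2380 in KPH2 1. Of 10 endothelial markers 8 were lower, 4 of the 10 had an unadjusted p under 0.05 by edgeR, and none passed. Of 7 epithelial markers 3 were tested, all 3 were higher in KPH2 2 to KPH2 4 and 2 passed by edgeR, with a summed 4.00 to 7.34 CPM in KP, 50.04 to 524 in KPH2 2 to KPH2 4 and 58.3 in KPH2 1. Krt8 was at 0.706 to 2.001 CPM in KP, at 262, 6.89 and 282 in KPH2 2 to KPH2 4 and at 1.44 in KPH2 1, and Krt18 was at 0.444 to 4.52, at 201, 40.8 and 228, and at 56.1. Krt5 and Krt14 were at 0 in all tumours. With KPH2 1 included, 0 markers of the muscle, mesenchymal and epithelial lists passed by edgeR. In bulk tumour RNA fewer cells of a type and less RNA per cell cannot be told apart. The part of these markers in the results that follow was not tested. A fit with a muscle score is given below, and it cannot tell muscle content from genotype. P-values of the group comparisons set the difference between groups against the spread between tumours.

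**Figure D1:**
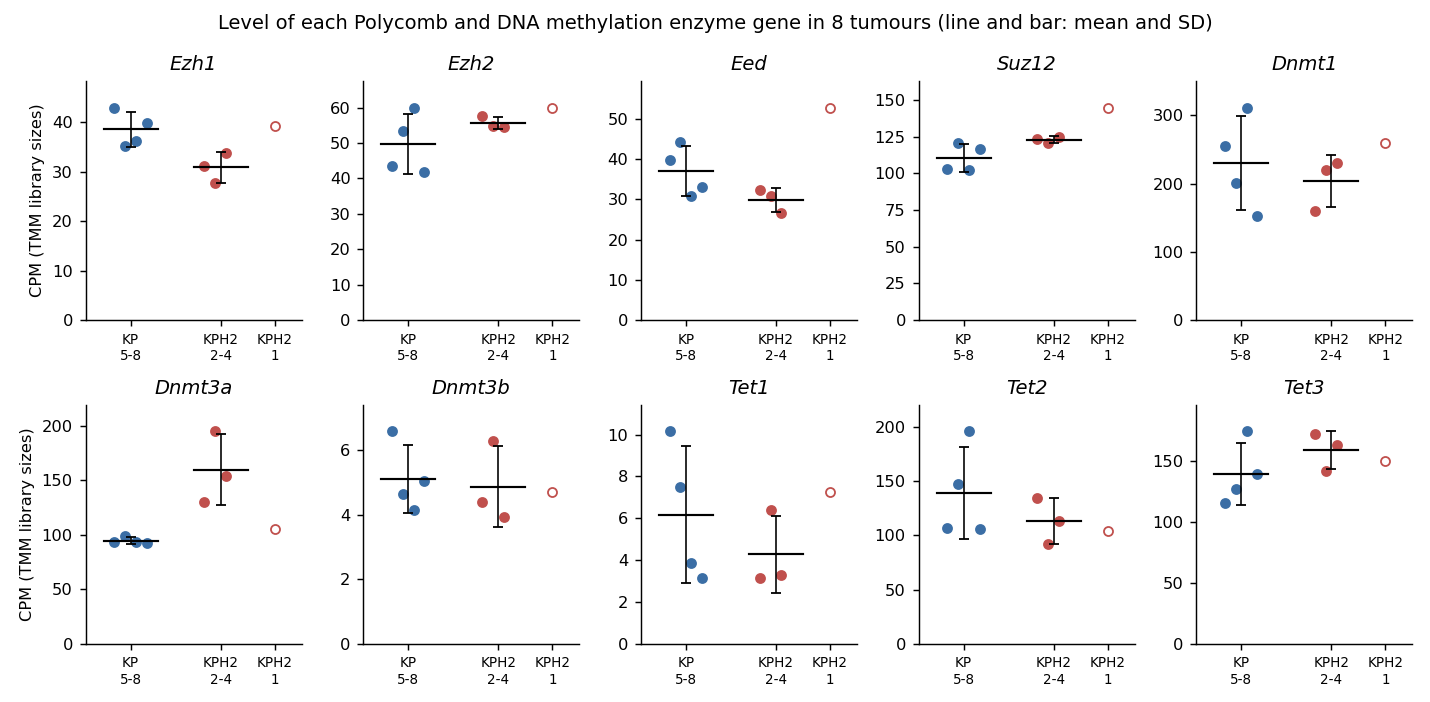
Level of the 10 genes in CPM, 1 point per tumour, with KP 5 to KP 8 in blue, KPH2 2 to KPH2 4 in filled red and KPH2 1 as an open red circle. Horizontal lines are means and vertical bars SD without KPH2 1. Dnmt3a is at 92.4 to 99.0 CPM in KP and 130 to 195 in KPH2 2 to KPH2 4, and of the other genes only Ezh1 and Suz12 do not overlap between KP and KPH2 2 to KPH2 4.

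Dnmt3a (Entrez Gene 13435, chromosome 12 from 3801559 to 3914443) encodes the main de novo methyltransferase of somatic cells. It was at 93.8, 99.0, 93.3 and 92.4 CPM in KP 5 to KP 8, at 130, 195 and 154 CPM in KPH2 2, 3 and 4, and at 106 CPM in KPH2 1. The KP tumours lay close together, and all KPH2 tumours were above them, KPH2 1 by the smallest step. In KP the mean was 94.6 ± 2.99 CPM (SD, n = 4). In KPH2 2 to KPH2 4 it was 160 ± 32.8 CPM (SD, n = 3). By edgeR's quasi-likelihood test the log2 fold change was 0.75 (SE 0.16, 95% interval 0.39 to 1.12), a 1.69-fold difference (1.31 to 2.17). The edgeR adjusted p, by the Benjamini-Hochberg method over all genes tested, was 0.0547. DESeq2 gave 0.76 with an adjusted p of 0.00298, below the threshold. For the mean log2 CPM a 2-sided exact permutation test gave p = 0.0286, the smallest that the 35 splits of 7 tumours allow, and gave 0.0286 again over the 70 splits of all 8. With KPH2 1 the log2 fold change was 0.63 (95% interval 0.21 to 1.04, edgeR adjusted p = 0.197). Without KPH2 3, the tumour with the most Dnmt3a, it was 0.59 (edgeR adjusted p = 0.142).

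The spread of Dnmt3a was uneven between the groups. On the log2 scale its SD was 0.045 over the KP tumours and 0.29 over KPH2 2 to KPH2 4. The skeletal muscle score, the mean log2 CPM of the muscle markers, was 2.96 to 4.23 in KP, 6.13, 6.81 and 4.57 in KPH2 2, 3 and 4 and 2.91 in KPH2 1. From the lowest score to the highest the tumours were KPH2 1, KP 7, KP 6, KP 5, KP 8, KPH2 4, KPH2 2 and KPH2 3, and in that order Dnmt3a was at 106, 93.3, 99.0, 93.8, 92.4, 154, 130 and 195 CPM. KPH2 3 was highest in both, and KPH2 2 had a higher score and less Dnmt3a than KPH2 4. The score did not overlap between KP and KPH2 2 to KPH2 4, so a fit with both cannot tell muscle content from genotype. Only 3 of 14867 genes tested passed by edgeR in that fit. Fitted beside the muscle score, Dnmt3a had a log2 fold change of 0.60 and an edgeR adjusted p of 0.770. With the proliferation score in its place these values were 0.73 and 0.172 by edgeR.

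**Figure D2:**
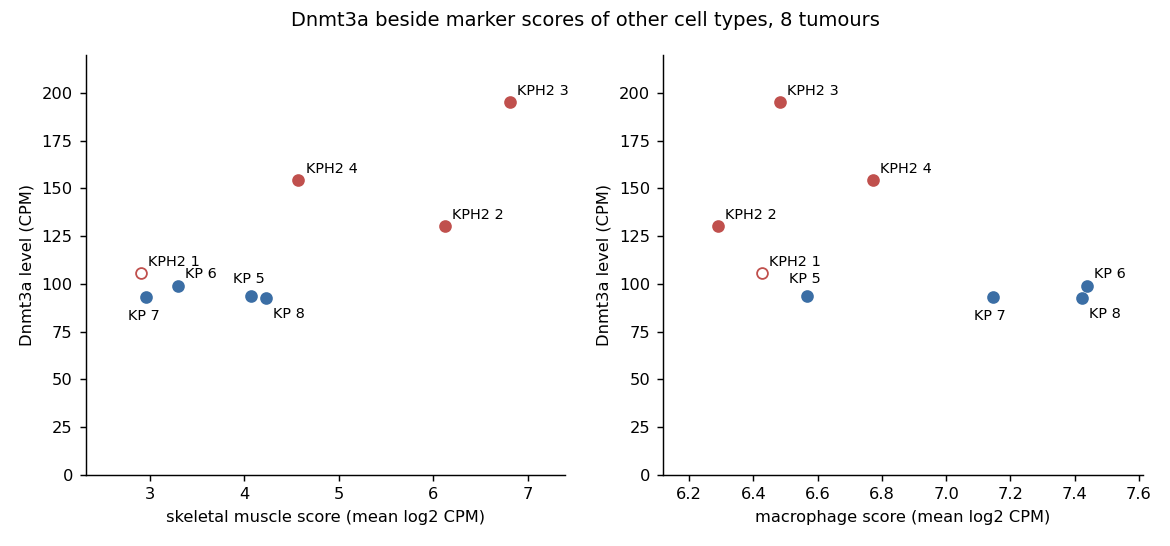
Dnmt3a in CPM against the skeletal muscle score (left) and the macrophage score (right), each the mean log2 CPM of a marker list, for 8 labelled tumours (KP blue, KPH2 red, KPH2 1 open). KPH2 3 has the highest muscle score and the most Dnmt3a (6.81 and 195 CPM), KPH2 2 has a higher score than KPH2 4 (6.13 and 4.57) and less Dnmt3a (130 and 154 CPM), and the KP tumours stay at 92.4 to 99.0 CPM over scores of 2.96 to 4.23.

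Dnmt3b (Entrez Gene 13436, chromosome 2 from 153649411 to 153687730), the de novo enzyme of early embryos and germ cells, was low in all tumours, at 3.94 to 6.60 CPM from 28 to 89 reads. Its range in KP, 4.14 to 6.60 CPM, held KPH2 1 and 2 of the other 3 KPH2 tumours. The log2 fold change of −0.08 had an interval of −0.74 to 0.58 (edgeR adjusted p = 0.926), or 0.601- to 1.498-fold.

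Dnmt1 (Entrez Gene 13433, chromosome 9 from 20907206 to 20959888), the maintenance enzyme, was at 256, 201, 312 and 153 CPM in KP 5 to KP 8, at 160, 220 and 231 in KPH2 2 to KPH2 4 and at 260 in KPH2 1. Each KPH2 tumour lay within the range of KP. Its log2 fold change was −0.18 (SE 0.25, 95% interval −0.76 to 0.40, edgeR adjusted p = 0.771). Its sign rested on KP 7, without which it was 0.00029.

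Dnmt3l, a partner of DNMT3A and DNMT3B with no catalytic activity of its own that is known from germ cells, was lower in KPH2 2 to KPH2 4 and far less abundant than Dnmt3a. It was counted 18, 23, 14 and 59 times in KP 5 to KP 8, 4, 3 and 3 times in KPH2 2 to KPH2 4, and 23 times in KPH2 1. In CPM this was 1.33 to 4.44 in KP, 0.300 to 0.359 in KPH2 2 to KPH2 4 and 1.84 in KPH2 1, which lay within the range of KP. Dnmt3l fell in KPH2 2 to KPH2 4 with a log2 fold change of −3.02 (SE 0.55, edgeR adjusted p = 0.0377). The summed counts, 10 against 114, gave a ratio of 0.119 with an exact 95% interval of 0.0554 to 0.226 that covers counting error only. With KPH2 1 the log2 fold change was −1.91 and did not pass (edgeR adjusted p = 0.246), and it passed in only 1 of the 7 fits that leave out a tumour, where the edgeR adjusted p ran from 0.0271 to 0.131.

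Suz12 (Entrez Gene 52615, chromosome 11 from 79993106 to 80034123), which anchors PRC2 on chromatin, was the most abundant of the Polycomb genes. It was at 103, 120, 102 and 117 CPM in KP 5 to KP 8, at 123, 121 and 125 in KPH2 2 to KPH2 4 and at 145 in KPH2 1. All KPH2 values lay above all KP values, but KP 6 and KPH2 3 nearly met, at 120.3 and 120.7 CPM, and the groups overlapped under upper-quartile scaling. The log2 fold change was 0.15 (95% interval −0.14 to 0.44, edgeR adjusted p = 0.584) without KPH2 1 and 0.22 (−0.06 to 0.49, edgeR adjusted p = 0.445) with it. The exact permutation p, 2-sided, was 0.114 over 7 tumours and 0.0286 over 8.

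Ezh2 (Entrez Gene 14056, chromosome 6 from 47530274 to 47595270) was at 43.6, 53.4, 59.8 and 42.0 CPM in KP 5 to KP 8. The KPH2 tumours were closer together, at 57.6, 54.7 and 54.7 CPM in KPH2 2 to KPH2 4 and 60.0 in KPH2 1, and all but KPH2 1 fell inside the range of KP. Between the groups the log2 fold change was 0.16 (SE 0.16, 95% interval −0.21 to 0.54, edgeR adjusted p = 0.658), and it ran from 0.089 without KP 8 to 0.26 without KP 7.

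Ezh1 (Entrez Gene 14055, chromosome 11 from 101191115 to 101226463) pointed the other way. It was at 43.0, 35.2, 36.3 and 39.9 CPM in KP 5 to KP 8, at 31.2, 27.7 and 33.7 in KPH2 2 to KPH2 4 and at 39.3 in KPH2 1. KPH2 2 to KPH2 4 lay below every KP tumour and KPH2 1 among them. The log2 fold change was −0.32 (SE 0.15, 95% interval −0.67 to 0.02, edgeR adjusted p = 0.309), and −0.23 with KPH2 1 (edgeR adjusted p = 0.516). The 2-sided exact permutation p was 0.0286 over 7 tumours, the smallest possible, and 0.114 over 8.

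Eed (Entrez Gene 13626, chromosome 7 from 89954654 to 89980976), whose product reads the mark that PRC2 lays down, was at 30.9 to 44.3 CPM in KP and at 26.5 to 32.3 in KPH2 2 to KPH2 4, with the groups overlapping. KPH2 1 was far above both, at 52.8 CPM. Without KPH2 1 the log2 fold change was −0.31 (95% interval −0.71 to 0.10, edgeR adjusted p = 0.417) and was −0.05 with KPH2 1 (edgeR adjusted p = 0.944). Exons of Ezh2, Eed and Suz12 share 92, 261 and 178 bases with transcripts on the opposite strand (Gm26625, E230029C05Rik and Gm26563). The libraries were stranded, but the strand setting of the counting is not given in the sources used here, so reads from these stretches may come from either gene.

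Tet1 (Entrez Gene 52463, chromosome 10 from 62804570 to 62887469), best known from embryonic stem cells, had the widest range of the 10 genes, 3.23-fold over the 8 tumours, from 26 to 137 reads. It was at 10.2, 7.48, 3.85 and 3.16 CPM in KP 5 to KP 8, at 3.15, 6.39 and 3.26 in KPH2 2 to KPH2 4 and at 7.26 in KPH2 1. High and low tumours occurred in both groups. The log2 fold change of −0.54 had the widest interval of the 10, from −1.63 to 0.55 (edgeR adjusted p = 0.613). It was −0.30 with KPH2 1, and ran from −0.16 without KP 5 to −0.95 without KPH2 3.

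Tet2 (Entrez Gene 214133, chromosome 3 from 133463677 to 133545136), a frequent target of mutation in blood cancers, was at 107, 148, 196 and 106 CPM in KP 5 to KP 8 and at 134, 91.9 and 113 in KPH2 2 to KPH2 4. KPH2 1, at 104, was below all KP tumours. The groups overlapped, with a log2 fold change of −0.30 (95% interval −0.87 to 0.27, edgeR adjusted p = 0.584), which was −0.09 without KP 7 and −0.17 without KPH2 3. Tet3 (Entrez Gene 194388, chromosome 6 from 83362373 to 83457208), the TET enzyme of the oocyte and of many differentiated tissues, was at 115 to 174 CPM in KP, at 142 to 172 in KPH2 2 to KPH2 4 and at 150 in KPH2 1. Its log2 fold change was 0.19 (95% interval −0.20 to 0.58, edgeR adjusted p = 0.607), or 0.13 without KP 5 and 0.32 without KP 7.

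**Figure D3:**
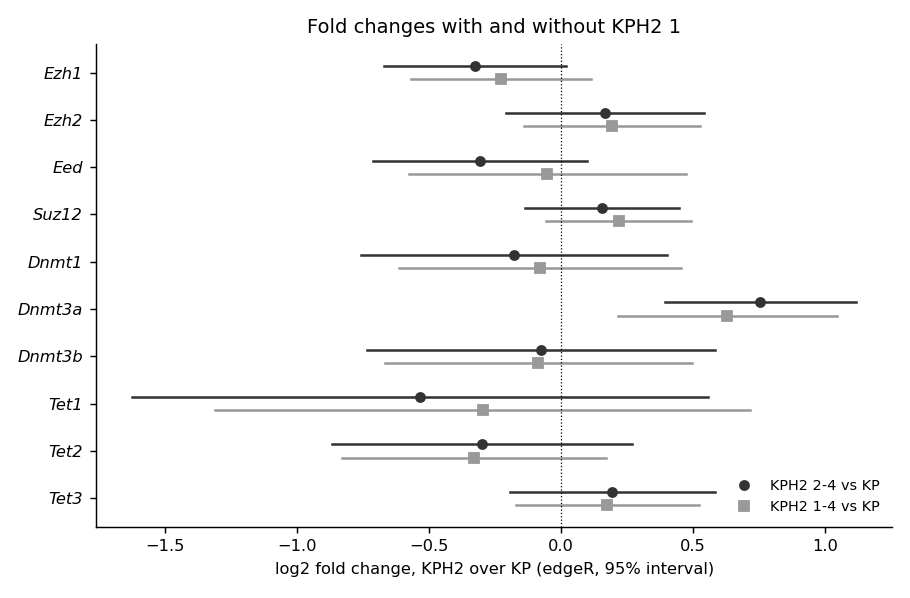
Log2 fold change of KPH2 over KP by edgeR with its 95% interval, for the 10 genes, without KPH2 1 (dark circles) and with it (grey squares). Only the intervals of Dnmt3a leave out 0, at 0.39 to 1.12 without KPH2 1 and 0.21 to 1.04 with it, and those of Tet1 are the widest.

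Across the 10 genes, 4 had positive and 6 negative log2 fold changes over the 7 tumours, with a median of −0.13 beside −0.02 over all genes tested. With KPH2 1 the medians were −0.07 and 0.01. By the adjusted p of edgeR 0 of 10 passed, beside 1.96% of all genes tested, and by the unadjusted p under 0.05 of edgeR 1 of 10 (Dnmt3a), beside 17.8%. Over all 8 tumours these counts were 0, beside 0.00675%, and 1 (Dnmt3a), beside 14.7%. DESeq2 called 1 of 10 (Dnmt3a) over the 7 tumours, beside 7.25%. KPH2 2 to KPH2 4 lay above KP without overlap for 2 of 10 genes (Suz12 and Dnmt3a), beside 8.73% of genes, and below for 1 (Ezh1), beside 8.15%. With KPH2 1 the counts were 2, beside 3.76%, and 0, beside 4.40%. KPH2 1 alone exceeded all KP tumours for Ezh2, Eed, Suz12 and Dnmt3a, 4 of 10 beside 25.0% of genes, and was below all of them for Tet2 alone, 1 of 10 beside 22.8%.

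Per length of exon, the genes could be set in order. In KP tumours the mean level per kilobase of exon, in CPM, was 36.6 ± 10.9 for Dnmt1, 25.3 ± 2.14 for Suz12, 17.9 ± 2.98 for Eed and 17.7 ± 3.01 for Ezh2 (SD, n = 4). Tet2 and Tet3 followed at 15.1 ± 4.62 and 12.7 ± 2.33, Dnmt3a and Ezh1 at 9.56 ± 0.302 and 9.20 ± 0.852, and Dnmt3b and Tet1 at 1.18 ± 0.244 and 0.429 ± 0.227 (SD, n = 4). Of the neighbours in this order, Suz12 and Eed, Tet3 and Dnmt3a, Ezh1 and Dnmt3b, and Dnmt3b and Tet1 did not overlap over the 4 KP tumours, and the other neighbours overlapped. In KPH2 2 to KPH2 4 Dnmt3a stood at 16.1 ± 3.32 CPM per kilobase (SD, n = 3) and took place 4 in the order instead of place 7, behind Dnmt1, Suz12 and Ezh2, while Eed took place 6 instead of place 3. These places lie within the spread, since in KPH2 2 to KPH2 4 Dnmt3a (13.1 to 19.7 CPM per kilobase) overlapped Ezh2, Tet3 and Eed (19.5 to 20.6, 12.998 to 15.8 and 12.8 to 15.6).

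Ratios within a tumour do not depend on how libraries are scaled, and are given per length as a description. In KP tumours Dnmt1 stood at 4.29, 3.20, 5.26 and 2.61 times the level of Dnmt3a in KP 5 to KP 8. In KPH2 2 to KPH2 4 the ratio was 1.94, 1.77 and 2.36, below every KP tumour, and in KPH2 1 it was 3.87, inside the range of KP.
Dnmt3b was at 0.102 to 0.161 of Dnmt3a in KP and at 0.0584 to 0.0774 in KPH2 2 to KPH2 4, with KPH2 1 at 0.102. Both ratios have Dnmt3a as the denominator and so hold the difference in Dnmt3a given above, and the share of other gene pairs that separate in this way was not computed. Eed was at 0.599 to 0.819 of Suz12 in KP and at 0.449 to 0.553 in KPH2 2 to KPH2 4, again without overlap, and at 0.772 in KPH2 1. Ezh2 exceeded Ezh1 in all 8 tumours, 1.52- to 2.47-fold in KP, 2.42- to 2.96-fold in KPH2 2 to KPH2 4 and 2.29-fold in KPH2 1, and these ranges overlapped. Tet2 to Tet3 and Tet1 to Tet3 overlapped too, at 0.909 to 1.39 and 0.0168 to 0.0667 in KP and at 0.768 to 0.927 and 0.0139 to 0.0342 in KPH2 2 to KPH2 4.

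**Figure D4:**
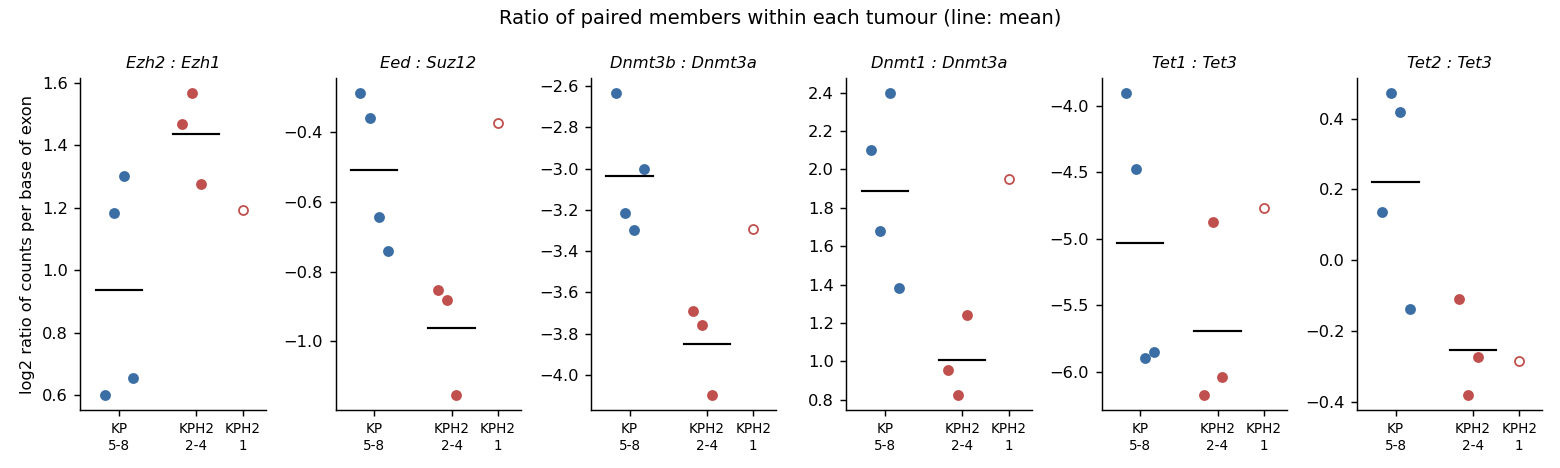
Log2 ratio of counts per base of exon for 6 pairs of genes within each tumour (KP blue, KPH2 red, KPH2 1 open, horizontal lines the means without KPH2 1; each panel has its own axis). Eed to Suz12, Dnmt3b to Dnmt3a and Dnmt1 to Dnmt3a lie below KP in KPH2 2 to KPH2 4 without overlap, and KPH2 1 lies within KP in all 3. The last 2 of these share Dnmt3a as the denominator.

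The partners of these enzymes were taken from 6 lists of 74 genes. Of these 73 were tested, 42 were higher and 31 lower in KPH2 2 to KPH2 4, with a median log2 fold change of 0.06. By edgeR 0 were called higher and 1 lower (Dnmt3l), which is 1.37% of the listed genes tested beside 1.96% of all genes, and 6 had an unadjusted p under 0.05, or 8.22% beside 17.8%. Over all 8 tumours none of them passed by edgeR.

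Of the PRC2 cofactors, 9 of 10 were tested, 0 passed, and the median log2 fold change was 0.03. Rbbp4 and Rbbp7, histone chaperones of PRC2, were at 0.22 and 0.17, and Jarid2, which helps to recruit it, and E130012A19Rik (Epop) were at −0.22 and −0.41 (edgeR adjusted p of 0.467 to 0.680 for these 4). Rbbp7 ran from 0.075 without KP 7 to 0.27 without KP 5, and was at 0.29 with KPH2 1. E130012A19Rik ran from −0.64 without KP 5 to −0.26 without KP 7, and was at −0.15 with KPH2 1. All 24 genes of PRC1, the complex that ubiquitinates histone H2A and binds the PRC2 mark, were tested, 14 higher and 10 lower, and 0 passed. Cbx7, a chromodomain subunit that reads the mark, had the smallest p of the PRC1 genes. It was at 5.93, 7.77, 11.99 and 7.83 CPM in KP 5 to KP 8, at 14.4, 14.5 and 17.0 in KPH2 2 to KPH2 4 and at 7.10 in KPH2 1. KPH2 2 to KPH2 4 were above all KP tumours and KPH2 1 was not. Its log2 fold change was 0.87 (SE 0.26, edgeR adjusted p = 0.129), and DESeq2 gave 0.89 with an adjusted p of 0.0446. Phc1 was at 0.54, and Scmh1 and Pcgf1 were at −0.39 and −0.54 (edgeR adjusted p of 0.252, 0.340 and 0.446). Scmh1 ran from −0.52 without KPH2 3 to −0.25 without KPH2 4. Pcgf1 ran from −0.85 without KPH2 2 to −0.37 without KP 7, and was at −0.18 with KPH2 1.

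Among 8 enzymes that remove these histone marks and their partners, 4 were higher, 4 lower and 0 passed. Bap1, the deubiquitinase that reverses the PRC1 mark and a tumour suppressor, was at 51.7 to 65.4 CPM in KP, at 77.8 to 80.4 in KPH2 2 to KPH2 4 and at 70.8 in KPH2 1. Its groups did not overlap with or without KPH2 1, and the log2 fold change was 0.43 (SE 0.14, edgeR adjusted p = 0.148). Kdm6b, a demethylase of histone H3 lysine 27, was at 0.49 (SE 0.21, edgeR adjusted p = 0.270) with overlap. Asxl3 was at −0.68 and Usp16 at −0.25, neither past the threshold (edgeR adjusted p of 0.413 and 0.501). Asxl3 was at −0.29 without KP 5 and −0.15 with KPH2 1, and Usp16 at −0.12 without KP 7.

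The 10 partners of DNA methylation had Dnmt3l as their only call. Trim28, a corepressor that holds imprints and retroelements silent, was at 188 to 253 CPM in KP, at 259 to 283 in KPH2 2 to KPH2 4 and at 287 in KPH2 1, with no overlap and a log2 fold change of 0.37 (edgeR adjusted p = 0.239). Pcna was at 0.32 and Trdmt1, an RNA methyltransferase, at −0.24 (edgeR adjusted p of 0.488 and 0.642). Pcna ran from 0.20 without KPH2 3 to 0.47 without KP 6, and was at 0.51 with KPH2 1. Trdmt1 ran from −0.38 without KPH2 3 to −0.11 without KPH2 2. Of 8 methyl-CpG readers, 4 were higher, 4 lower and 0 passed, with Zbtb38 and Zbtb4 at 0.36 and 0.21 and Mbd4 and Mbd2 at −0.29 and −0.26 (edgeR adjusted p of 0.452 to 0.668 for these 4). Zbtb38 ran from 0.16 without KP 8 to 0.80 without KP 7, Zbtb4 was at 0.14 without KPH2 3, and Mbd4 was at −0.16 without KP 7 and −0.07 with KPH2 1. Of 14 TET partners and base excision genes, 9 were higher and 0 passed, with a median of 0.26. Cxxc5 was at 0.78 (edgeR adjusted p = 0.309) with overlap, and at 0.30 without KPH2 3. Apex1, the endonuclease of base excision, was at 3.39 to 7.63 CPM in KP, at 8.09 to 10.7 in KPH2 2 to KPH2 4 and at 8.22 in KPH2 1, with no overlap and a log2 fold change of 0.63 (edgeR adjusted p = 0.316). Tdg, which excises oxidized methylcytosine, was at −0.32 and Gadd45b at −0.38 (edgeR adjusted p of 0.602 and 0.705). Tdg ran from −0.57 without KPH2 2 to −0.066 without KPH2 3.

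**Figure D5:**
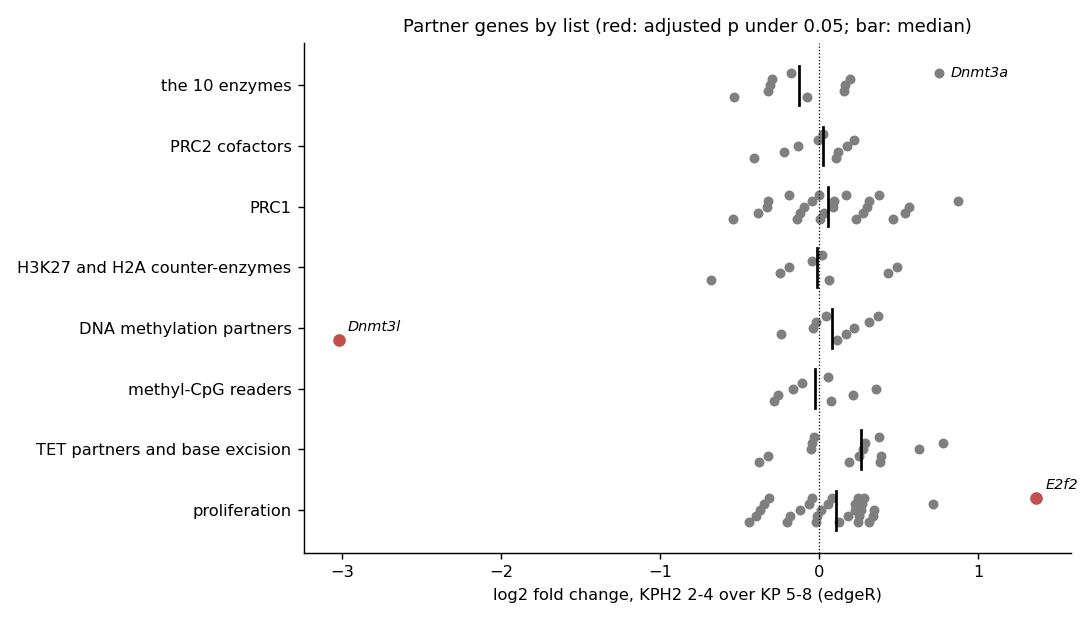
Log2 fold change of KPH2 2 to KPH2 4 over KP by edgeR, 1 point per tested gene, for the 10 enzymes, 6 lists of partners and a proliferation list. Red points passed an adjusted p of 0.05 (Dnmt3l at −3.02 and E2f2 at 1.36), and black bars are the medians, −0.13 for the 10 enzymes.

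Because Ezh2 and Dnmt1 follow the cell cycle, 30 proliferation genes were set beside them. All 30 were tested, 18 were higher and the median log2 fold change was 0.10. By edgeR 1 of 30 passed, beside 1.96% of all genes tested, and 3 had an unadjusted p under 0.05, beside 17.8%. E2f2, a transcription factor of the G1/S transition, rose from 10.6 ± 3.16 CPM (SD, n = 4) to 27.4 ± 6.38 CPM (SD, n = 3), with a log2 fold change of 1.36 (SE 0.27, edgeR adjusted p = 0.0491). KPH2 1, at 9.26 CPM, lay within KP, and the call was lost with it (1.10, edgeR adjusted p = 0.255) and in each of the 7 fits that leave out a tumour (edgeR adjusted p of 0.0673 to 0.139). Rrm2, a ribonucleotide reductase subunit, was at 0.72 (edgeR adjusted p = 0.0926), while Mki67 was at −0.37 and Ccne2 at −0.44 (edgeR adjusted p of 0.432 and 0.406). Mki67 ran from −0.52 without KPH2 3 to −0.23 without KP 5, and Ccne2 from −0.61 without KPH2 3 to −0.29 without KP 6. With KPH2 1 included, each was at −0.23. The proliferation score, a mean log2 CPM, was 5.44 ± 0.134 in KP (SD, n = 4), 5.55 ± 0.0464 in KPH2 2 to KPH2 4 (SD, n = 3) and 5.72 in KPH2 1.

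Genes that these marks are known to silence were mostly under 1 CPM in both groups. The share of all genes under 1 CPM was not computed, and 14867 of 26667 rows passed the filter over 7 tumours. Whether these marks keep the listed genes low was not tested. Of 18 germline genes that depend on DNA methylation for their silence, 12 stayed under 1 CPM in every tumour, 4 were tested and 0 passed by edgeR, with 0 at an unadjusted p under 0.05. Brdt was above 1 CPM in all 8 tumours, at 4.29 to 7.31 CPM in KP, 3.04 to 5.57 in KPH2 2 to KPH2 4 and 5.83 in KPH2 1. Tdrd1 reached 19.84 CPM in KP 7 and 32.4 in KPH2 1 and was at 0 in KP 6, KP 8 and KPH2 3. Of 20 known targets of PRC2, 14 stayed under 1 CPM in every tumour, 5 were tested, 4 higher and 1 lower with a median log2 fold change of 0.27, and 0 passed by edgeR, with 1 at an unadjusted p under 0.05. That gene, the lower one, was Sox17, an endothelial as well as endodermal factor, at 3.19 to 5.23 CPM in KP, 1.798 to 2.36 in KPH2 2 to KPH2 4 and 0.958 in KPH2 1 (log2 fold change −1.02, edgeR adjusted p = 0.131). Gata6 had the highest value of the 5, a log2 fold change of 1.38 (edgeR adjusted p = 0.316), at 0.979 to 6.81 CPM in KP, 4.94 to 8.55 in KPH2 2 to KPH2 4 and 0.160 in KPH2 1. The cell cycle inhibitors Cdkn2a and Cdkn2b, classic PRC2 targets, were well above 1 CPM in all tumours, at 71.9 to 192 and 61.1 to 129 CPM in KP and at 162 to 199 and 73.7 to 138 CPM in KPH2 2 to KPH2 4 (log2 fold changes of 0.27 and 0.38, edgeR adjusted p of 0.705 and 0.580). Brdt, Tdrd1, Sox17, Gata6, Cdkn2a, Cdkn2b and the markers of other cell types, outside the rule for named genes, were chosen with their values in view.

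The genes closest in pattern were found by the root mean square difference of centred log2 CPM over the 8 tumours. They were picked as the smallest distances, so they lie below the median by construction, and shared control was not tested. The log2 SD over the 8 tumours was 0.20 for Ezh2, 0.35 for Dnmt1 and 0.65 for Tet1. For Ezh2 they were Cct8, Mkln1, Mpp5, Fggy and Jmjd6, at 0.064 to 0.080, beside a median of 0.39 over all genes. For Dnmt1 they were Kri1, Ctnnb1, Traip, Scaper and Cep70, at 0.049 to 0.10 beside a median of 0.48. For Tet1, with its wide range and low counts, they were LOC100861634, Zfp354c, Mylip, Ecm2 and Thbs3, at 0.21 to 0.25 beside a median of 0.70.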

How the data were processed

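The authors sequenced ribosome-depleted RNA from fixed tumour sections as stranded libraries, mapped them with STAR 2.4 (GRCm38) and assigned uniquely mapped reads to RefSeq genes by htseq-count (HTSeq 0.6.1). The deposited counts of 8 tumours are not normalized, and the total per tumour was 6463221 to 13155510. The authors also deposited log2 values from the regularized log (rlog) of DESeq2 1.6, one table with and one without KPH2 1.

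The 10 genes, the gene lists and the tests were chosen with earlier results of these data known. Groups came from the sample labels. The fits used edgeR 4.0.16 under R 4.3.3 (TMM, minimum count 10, minimum total count 15, robust quasi-likelihood test), with p-values adjusted by the Benjamini-Hochberg method over all genes tested and a threshold of 0.05. CPM used TMM library sizes over 8 tumours, and log2 CPM a prior count of 2. Exon lengths are the union of exons of curated RefSeq transcripts on GRCm38, from their paired GENCODE models. Named partner genes are the 2 genes of each list with the smallest p in each direction. The alternatives were all 8 tumours, 2 other normalizations, no filter or a mean count of at least 50, each tumour left out, DESeq2 1.42.0, edgeR without robust estimates, a muscle or a proliferation score as a covariate, and, for exact permutation tests, the rlog values, whose 8-tumour table was added after seeing the data. The tests were tried on simulated data, where 198 of 200 genes changed by 2 on the log2 scale were recovered by edgeR and 198 by DESeq2, with 14 and 25 unchanged genes called. Smaller changes were not simulated. Protein sequences were not used here. A further allele that both groups carry is not reported here.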

Additional observations from a re-analysis of the deposited data

Results flagged for a closer look

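In the groups of 4 tumours, 7 values lay farther from the other 3 than Dixon's 95% limit on the gap as a share of the whole range allows, and chance alone flags about 1 group in 20, of 90 groups tested here. KP 5 had less Epas1 than the other KP tumours, 59.1 CPM against 83.0 to 86.7. The same tumour had more Trdmt1, 10.5 CPM against 7.99 to 8.29, and more Gadd45b, 9.71 CPM against 4.00 to 4.52. KP 7 had more Cxxc5, 58.0 CPM against 31.2 to 33.1. KPH2 1 had more Rbbp7 than the other KPH2 tumours, 291.5 CPM against 216 to 227, and more Dnmt3l, 1.84 CPM against 0.300 to 0.359. KPH2 4 had less Gadd45b, 2.36 CPM against 5.21 to 5.39. None of the 10 enzyme genes had such a tumour in KP or among the 4 KPH2 tumours.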

How the results depend on the processing

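Of 675 values recomputed under another setting, 613 kept their direction and their side of the threshold or, for counts, changed by at most 1.5 times. The genes without overlap, 3 of 10, were 2 with all 8 tumours and 2 under upper-quartile scaling. No paired analysis was possible because the groups share no replicate numbers. Over the whole table edgeR called 292 genes, and 1 with KPH2 1, 3 with the muscle score, 17 with the proliferation score, 55 to 349 with a tumour left out and 1178 by DESeq2. Dnmt3a stayed positive in all settings, at 0.59 to 0.88 (log2), and passed by DESeq2 alone (0.76, adjusted p = 0.00298), with an adjusted p of 0.0723 to 0.142 by edgeR with a tumour left out and up to 0.770 over all settings. DESeq2 therefore called 1 of the 10 genes. The muscle score did not overlap between KP and KPH2 2 to KPH2 4, so a fit with it cannot tell muscle content from genotype. With the muscle score the sign turned for Dnmt1 (0.24), Tet2 (0.35), Mbd2 (0.0073), Mbd4 (0.18) and Tdg (0.22). In that fit 14 of 38 named genes lay over 1.5 times farther from 0, of the 10 enzymes Ezh2 (0.43), Eed (−0.50), Dnmt3b (−0.74), Tet1 (−1.33) and Tet3 (0.48), and 4 lay closer, Jarid2 (−0.017) and Usp16 (−0.022) nearest to 0. With the proliferation score the sign turned for Rbbp7 (−0.030) and E130012A19Rik (0.068), and the cause was not tested. Of the 38 genes, 22 moved by over 1.5 times or turned in at least 1 fit that leaves out a tumour, 14 with KPH2 1 and 19 with the proliferation score. With a tumour left out, Dnmt1 ran from −0.33 to 0.00029, Dnmt3b from −0.30 to 0.084 and Gadd45b from −0.56 to 0.050. Epas1 passed by DESeq2 (−0.81, adjusted p = 0.0115) and ran from −0.96 to −0.71 with a tumour left out, passing without KP 5 (edgeR adjusted p = 0.0442). The 1 call among the partner lists (Dnmt3l) became 0 with all 8 tumours, with a mean count of at least 50, where that gene was not tested, and with either score, 2 by DESeq2, and 0 to 1 with a tumour left out. The 1 call among proliferation genes (E2f2) became 0 with all 8 tumours, upper-quartile scaling, a mean count of at least 50 or either score, 2 by DESeq2, and 0 to 0 with a tumour left out. Dnmt3b, Tet1 and Dnmt3l had few reads, down to 28, 26 and 3 in a tumour.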
